A study of Ovis aries with 2 samples.

Results

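The miR-200 family of microRNAs (miRNAs) was followed in extracellular vesicles from uterine luminal fluid (ULF) of sheep. Its members were taken from the deposited tables of mature miRNAs by the precursor names mir-200a, mir-200b, mir-200c, mir-141 and mir-429, and all 5 of them were found among the 81 mature miRNAs of the table. The vesicles came from Rambouillet ewes at day 14 after estrus, which had either been mated with a fertile ram (pregnant) or not (cyclic), and were precipitated from the uterine flush with ExoQuick-TC. RNA of 4 ewes was pooled into 1 small RNA library for each status, so that there is no replicate and the variation between ewes is unknown. Every ratio below therefore compares a pair of libraries and not the conditions. A conceptus library, which the deposited tables also hold, was not analysed here. The pregnant library had 119605 reads, 2809 of them counted under a listed mature miRNA, and the cyclic library had 94735 reads with 7921 such counts.

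The miR-200 family keeps epithelial cells in the epithelial state. Its best known targets are the mRNAs of ZEB1 and ZEB2, transcription factors that repress E-cadherin, and the ZEB proteins in turn repress the miR-200 genes. The endometrial luminal and glandular epithelia and the trophectoderm of the conceptus are all epithelia that border on the uterine lumen, and vesicles in ULF can come from any of them. The members are transcribed from a pair of gene clusters, miR-200b with miR-200a and miR-429, and miR-200c with miR-141. In the sheep RefSeq annotation (ARS-UI_Ramb_v3.0), 3 of the 5 members had a gene of the same name. MIR200A and MIR200B lay next to each other between the protein-coding genes TTLL10 and C12H1orf159, and MIR200C lay between PHB2 and PTPN6.

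The members fall into groups in a second way, by their seed, the bases 2 to 8 that pair with target mRNAs. The mature sequences of the deposited table, which are cattle sequences in DNA letters, are shown with the seed in capitals because the cluster partners do not share it.
miR-200b: tAATACTGcctggtaatgatg
miR-200c: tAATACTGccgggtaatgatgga
miR-429: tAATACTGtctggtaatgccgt
miR-200a: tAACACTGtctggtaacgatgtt
miR-141: tAACACTGtctggtaaagatgg
The seed AATACTG was found in miR-200b, miR-200c and miR-429, and the seed AACACTG in miR-200a and miR-141. No other of the 81 mature miRNAs had either seed. Each cluster thus holds at least 1 member of each seed group.

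Outside the seed the members differ little, which matters for a workflow that counts reads with mismatches. The closest pair of each seed group is shown with the differing bases in capitals, position 1 being the 5′ end, over the length that the sequences share.
miR-200c: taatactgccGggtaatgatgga
miR-200b: taatactgccTggtaatgatg
miR-200a: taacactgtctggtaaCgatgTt
miR-141: taacactgtctggtaaAgatgG
miR-200c and miR-200b differed by the single substitution G11T over 21 bases. miR-200a and miR-141 differed by C17A and T22G over 22 bases. The authors' workflow, which allowed at most 1 mismatch, assigned all counts of every listed member to 1 precursor only, 100% in each library. Such an assignment does not show which member a read with a mismatch came from. Counts are therefore given per member, as assigned.

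miR-200a, miR-200b and miR-200c were abundant in both libraries. For miR-200c, 131 reads were counted in vesicles from pregnant ewes, or 4.66% of all mature miRNA counts there (exact Clopper-Pearson 95% interval 3.91 to 5.51%), and 233 reads, or 2.94% (2.58 to 3.34%), in those from cyclic ewes. For miR-200b the pregnant library held 103 counts, or 3.67% (3.0 to 4.43%), and the cyclic library 445, or 5.62% (5.12 to 6.15%). For miR-200a these were 73 counts, or 2.60% (2.04 to 3.26%), and 289 counts, or 3.65% (3.25 to 4.09%). The order of the members was thus not the same in the libraries. By counts miR-200c was the 5th most abundant mature miRNA of the pregnant library, miR-200b the 8th and miR-200a the 12th, whereas in the cyclic library miR-200b ranked 4th, miR-200a 7th and miR-200c 9th. Reads carry no molecular identifiers, so these and all other intervals cover counting error only.

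The other two members were scarce. miR-141 had 43 counts in the cyclic library, 0.543% (0.393 to 0.731%), and miR-429 had 20, 0.252% (0.154 to 0.390%). Neither was listed for the pregnant library. The authors' minimum of 10 copies hides lower counts, so up to 9 copies, 0.320% of the mature miRNA counts, can be present there. At an equal share in both libraries miR-141 would have had 15.2 pregnant counts and miR-429 7.09 counts. Being unlisted is therefore no sign of a change for miR-429, whose equal share lies under the minimum, whereas that of miR-141 lies above it. In the cyclic library miR-141 was 5.42 times less abundant than its cluster partner miR-200c, and miR-429 was 22.3 times less abundant than miR-200b.

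**Figure D1:**
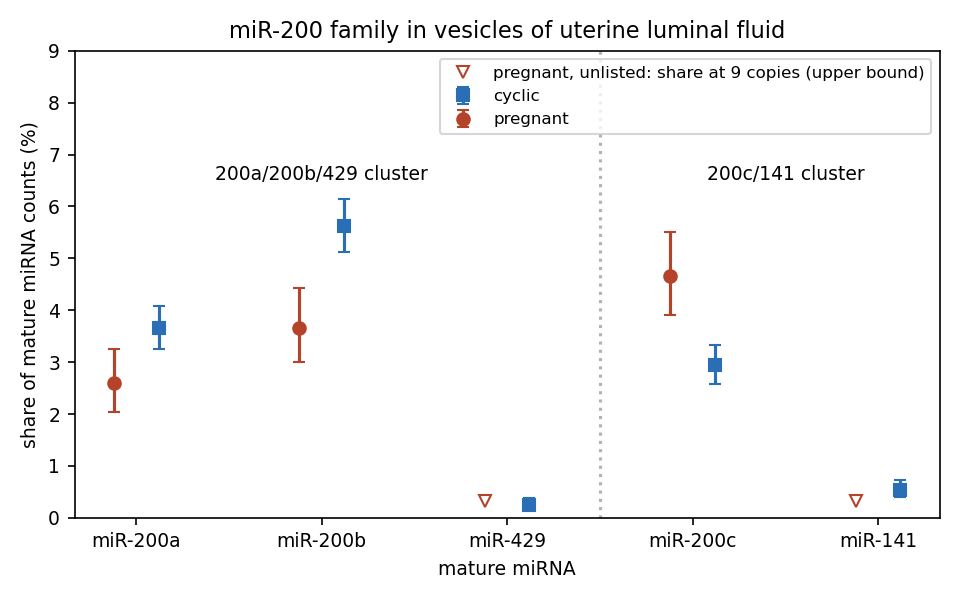
Share of each member in the mature miRNA counts of the pregnant (circles) and cyclic (squares) library in percent, with exact 95% intervals for counting error; open triangles mark the share at 9 copies, the most that an unlisted member can have. miR-200a and miR-200b lie lower in the pregnant library (2.60% and 3.67%) than in the cyclic one (3.65% and 5.62%), and miR-200c lies higher (4.66% against 2.94%), which holds for shares of mature miRNA counts and not relative to all reads. Each library is 1 pool of 4 ewes.

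Relative to total mature miRNA counts, members of the family went in both directions. The pregnant-to-cyclic ratio was 1.59 for miR-200c, with an exact conditional binomial 95% interval of 1.27 to 1.97, but 0.445 (0.357 to 0.554) when counts were divided by all reads of the library. miR-200b had a ratio of 0.653, its interval running from 0.522 to 0.810. That of miR-200a was 0.712 (0.543 to 0.924), and with a minimum of 50 copies it was 0.857 (0.654 to 1.11) and no longer called. A ratio was called where its interval excluded 1. By this rule 1 of the 5 members was higher in the pregnant library and 2 were lower, and of all 81 mature miRNAs 13.6% were higher and 7.41% were lower. None of the 5 was called with a further criterion of at least 2-fold, which 6.17% of the 81 passed as higher and 2.47% as lower. Among the 53 miRNAs listed in both libraries, 3 had a lower ratio than miR-200b and 10 had a higher one than miR-200c.

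The remaining pair gave bounds only. The ratio of miR-141 was at most 0.590, with an interval at this bound of 0.253 to 1.23. The ratio of miR-429 was at most 1.27 (0.509 to 2.92). At 9 pregnant copies an interval below 1 needs at least 52 cyclic counts, so that neither could have been called at this depth. Of the 27 miRNAs listed for the cyclic library only, 2 had more counts than miR-141.

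**Figure D2:**
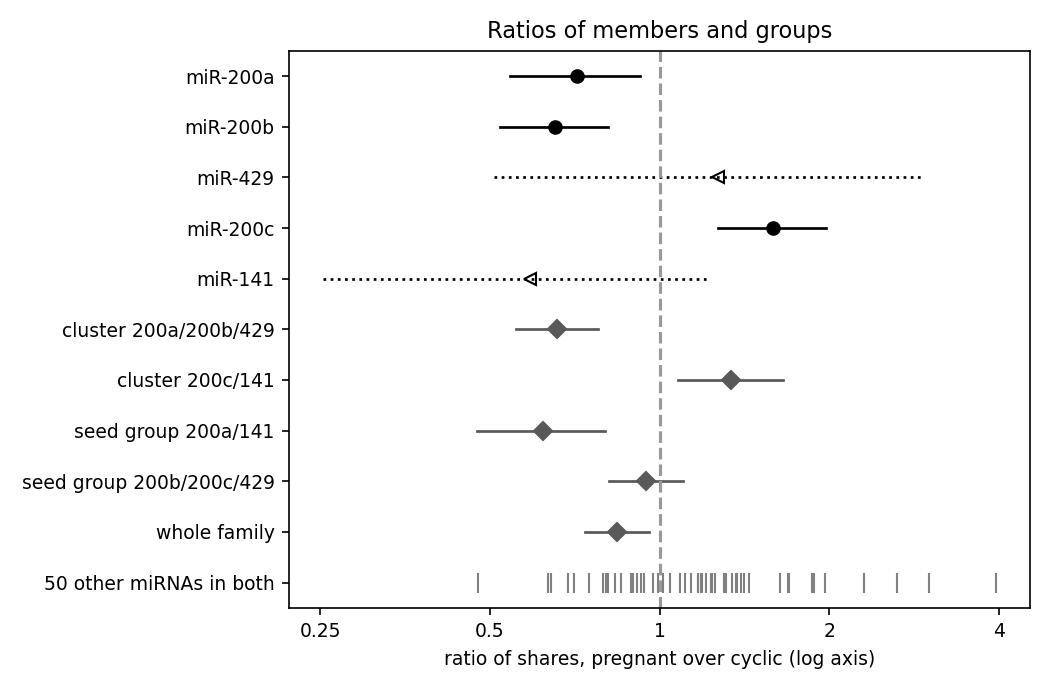
Ratio of the share of mature miRNA counts in the pregnant over the cyclic library on a log axis, with exact 95% intervals for counting error; circles are members, diamonds are sums of listed counts, open triangles with dotted intervals are upper bounds at 9 copies, and ticks in the lowest row are the 50 other miRNAs listed in both libraries. miR-200a (0.712) and miR-200b (0.653) lie left of 1 and miR-200c (1.59) right of 1, a position it does not keep when counts are divided by all reads (0.445).

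The gene clusters were compared next. Summed over its listed members the miR-200b/miR-200a/miR-429 cluster held 176 pregnant counts, or 6.27% (5.40 to 7.23%), and 754 cyclic counts, or 9.52% (8.88 to 10.2%). Its ratio was 0.658 (0.555 to 0.777), and 0.692 (0.586 to 0.814) with miR-429 set at 9 copies. The miR-200c/miR-141 cluster held 131 pregnant counts, or 4.66%, and 276 cyclic counts, or 3.48% (3.09 to 3.91%). All 131 were counts of miR-200c, as miR-141 was unlisted for the pregnant library. The ratio of this cluster was 1.34 (1.08 to 1.65), and 1.43 (1.16 to 1.76) with miR-141 set at 9 copies. It was no longer called with edgeR's TMM (1.20, 0.968 to 1.48) or DESeq2's size factors (1.15, 0.923 to 1.41), and relative to all reads it turned to 0.376 (0.303 to 0.465).

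How the clusters stood to each other does not depend on the scaling of the libraries, since both parts come from the same library. The miR-200c/miR-141 cluster had 0.744 counts for each count of the miR-200b/miR-200a/miR-429 cluster in the pregnant library and 0.366 in the cyclic library. The odds ratio of the clusters was 2.03 (exact conditional 95% interval 1.54 to 2.67). With the unlisted members at whichever of 0 and 9 copies moves it most, the odds ratio lay between 1.93 (1.47 to 2.54) and 2.17 (1.66 to 2.84). Of the members, miR-200c moved against its relatives. Against miR-200b, the member with the same seed and 1 differing base, miR-200c had 1.27 counts for each count in the pregnant library and 0.524 in the cyclic library, an odds ratio of 2.43 (1.77 to 3.33). Against miR-200a it had 1.79 and 0.806, an odds ratio of 2.23 (1.57 to 3.16). None of the counts of miR-200b and miR-200a was an exact match to the cattle sequence, so both values rest on the assignment by the workflow.

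A background for these odds ratios was taken from the 25 other miRNAs with at least 100 cyclic counts that were listed in both libraries. Of their 300 pairs 29.7% had an interval that excluded 1, so that an interval excluding 1 is common between these libraries. An odds ratio as far from 1 as that of miR-200c over miR-200b was found in 6 pairs, 2%, and one as far as that of miR-200c over miR-200a in 12 pairs, 4%. Pairs share miRNAs and are not independent of each other. The pairs with miR-200c were also the farthest from 1 of the 3 member pairs listed in both libraries. These shares are therefore descriptive and not probabilities.

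Within the clusters the partners were compared in the same way. miR-200b and miR-200a, neighbours in one cluster with different seeds, could not be told apart in this way. miR-200b had 1.41 counts for each count of miR-200a in the pregnant library and 1.54 in the cyclic library, an odds ratio of 0.916 with an interval of 0.648 to 1.3. A shift within these limits was not detectable at this depth. miR-200c and miR-141, partners in the other cluster, could be compared through a bound only. For each miR-141 count there were 5.42 counts of miR-200c in the cyclic library and at least 14.6 in the pregnant library, an odds ratio of at least 2.69 with an interval at this bound of 1.24 to 6.46. This value is a bound, as miR-141 is listed for the cyclic library only, and its interval excluded 1. In these libraries the intervals of miR-200c over its cluster partner, over miR-200b and over miR-200a thus excluded 1. Of the 300 pairs of other miRNAs 29.7% did so too, and that background holds no bounds. The bounds of miR-200b (at least 1.11) and miR-200a (at least 1.21) over miR-141 had intervals that included 1. The 3 pairs with miR-429 also had intervals at the bound of 9 copies that included 1. In all 9 pairs of members were compared, 3 of them from listed counts and 6 as bounds.

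**Figure D3:**
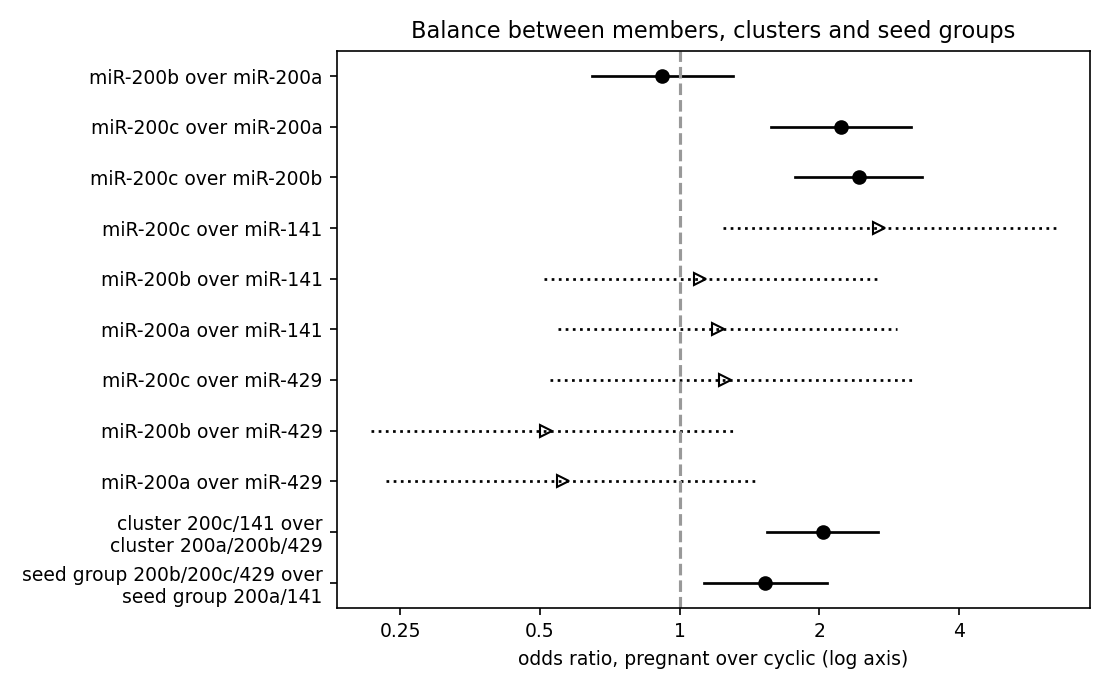
Odds ratio of the counts of the first over the second member or group, pregnant over cyclic library, on a log axis with exact conditional 95% intervals for counting error; open triangles with dotted intervals are lower bounds with the unlisted member at 9 copies. miR-200c lies above 1 against miR-200b (2.43), miR-200a (2.23) and miR-141 (at least 2.69), while miR-200b over miR-200a (0.916) has an interval that includes 1.

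The members were next summed by seed. The AATACTG group (miR-200b, miR-200c and miR-429) held 234 pregnant counts, or 8.33% (7.33 to 9.41%), and 698 cyclic counts, or 8.81% (8.20 to 9.46%). Its ratio was 0.945 (0.812 to 1.10). This value sums a member that was higher and a member that was lower, and its call turned with the processing. The group was called lower with edgeR's TMM (0.849, 0.729 to 0.986) and DESeq2's size factors (0.809, 0.695 to 0.939), and higher with a minimum of 50 copies (1.17, 1.01 to 1.36). The AACACTG group (miR-200a and miR-141) held 73 pregnant counts, or 2.60%, and 332 cyclic counts, or 4.19% (3.76 to 4.66%), a ratio of 0.620 (0.474 to 0.801). With miR-141 set at 9 copies the ratio became 0.696 (0.540 to 0.889), and with a minimum of 50 copies, which leaves miR-200a only, 0.857 (0.654 to 1.11). The odds ratio of the AATACTG over the AACACTG group was 1.52 (1.13 to 2.08), and 1.36 (1.01 to 1.83) with miR-141 at 9 copies and miR-429 at 0. The interval of the latter reached almost to 1.

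The family as a whole took 307 of the pregnant and 1030 of the cyclic counts. These were 10.9% (9.80 to 12.1%) and 13.0% (12.3 to 13.8%) of the mature miRNA counts, a ratio of 0.840 (0.737 to 0.956). With miR-141 and miR-429 at 9 copies each, the most that the minimum of 10 copies can hide, the ratio was 0.890 (0.783 to 1.01) and could not be told from 1. Over the 3 members listed in both libraries it was 0.895 (0.785 to 1.02). Within the family, miR-200c took 42.7% of the pregnant counts (37.1 to 48.4%) and 22.6% of the cyclic counts (20.1 to 25.3%). miR-200b made up 33.6% (28.3 to 39.1%) and 43.2% (40.2 to 46.3%), and miR-200a 23.8% (19.1 to 28.9%) and 28.1% (25.3 to 30.9%). Relative to all reads the ratio of the whole family was 0.236 (0.207 to 0.268).

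**Figure D4:**
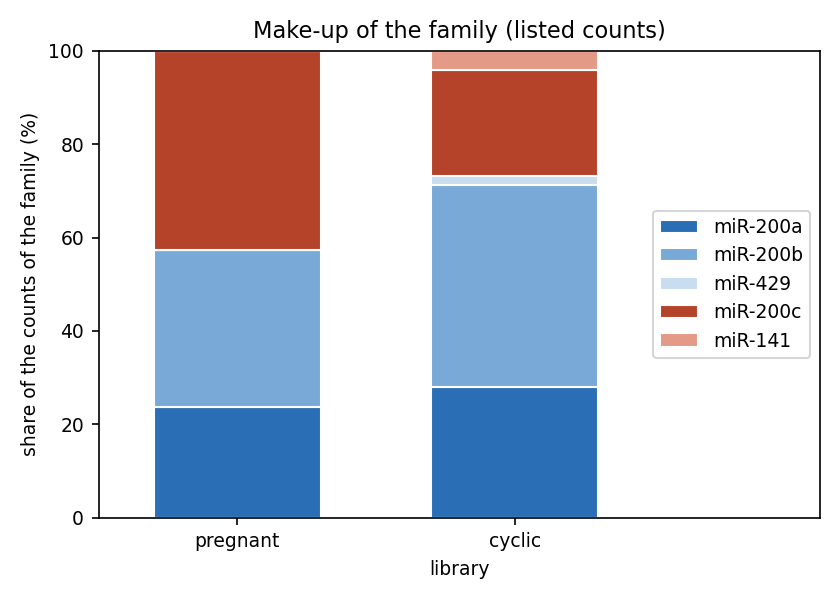
Make-up of the listed counts of the family in percent, from 307 pregnant and 1030 cyclic counts; blue shades are the miR-200b/miR-200a/miR-429 cluster and red shades the miR-200c/miR-141 cluster. miR-200c takes 42.7% of the pregnant and 22.6% of the cyclic bar. miR-429 and miR-141, unlisted for the pregnant library, add at most 9 copies each there.

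The kind of read behind the counts set miR-200c apart from the rest of the family. Exact matches to the cattle sequence were 92 of its 131 pregnant reads, or 70.2% (61.6 to 77.9%), and 159 of its 233 cyclic reads, or 68.2% (61.8 to 74.2%). These shares gave an odds ratio of 1.10 (0.674 to 1.80) between the libraries. None of the counts of miR-200a, miR-200b, miR-141 and miR-429 was an exact match in either library. For the 445 cyclic counts of miR-200b this allows an exact share of up to 0.674%, and for the 289 of miR-200a up to 1.04%. miR-200c was the most abundant mature miRNA by exact matches in both libraries, where it gave 29.9% (pregnant) and 20.5% (cyclic) of all exact counts.

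The ratio of miR-200c lay above 1 in either kind of read. Relative to total mature miRNA counts its exact matches had a ratio of 1.63 (1.25 to 2.12) and its other reads one of 1.49 (0.982 to 2.22), the latter with an interval that included 1. For the other members no ratio of exact reads could be had. Among the members only the miR-200c reference ends in A, while miR-200a and miR-429 end in T and miR-200b and miR-141 in G. Exact matches went with this last base across the table. Of the 18 mature miRNAs of the cyclic library that end in A, 16 had at least 1 exact match, and of the 62 that end in another base 7 had one. The sum of the 17 miRNAs ending in A other than miR-200c had a ratio of 0.855 (0.759 to 0.960). Of the 18 that end in A, miR-200c included, only 10 were listed in the pregnant library. The unlisted ones add cyclic counts only to this sum, which lowers its ratio. Whether the sum stays below 1 with them at 9 copies was not tested. What sets the exact matches was not tested.

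Other epithelial miRNAs were set beside the family. Of a list of 15, which was drawn up with earlier results of these data known, 3 were listed and none was called in either direction, where 13.6% (higher) and 7.41% (lower) of all 81 were called. A count of 0 among 3 miRNAs is near this background, and miR-34c lay under the 52 cyclic counts that a lower call needs. miR-31, an abundant miRNA of epithelia, had 75 pregnant and 171 cyclic counts, a ratio of 1.24 (0.930 to 1.63). miR-205, found in stratified and glandular epithelia, had 26 and 51 counts, a ratio of 1.44 (0.860 to 2.35). miR-34c, which acts in multiciliated cells, reached 31 cyclic counts and was unlisted for the pregnant library (at most 0.819, 0.343 to 1.76). Their sum, to which miR-34c adds no pregnant counts, had a ratio of 1.13 (0.885 to 1.42). The median log2 ratio over miR-31 and miR-205 was 0.42, beside 0.22 over the 53 miRNAs listed in both libraries. Whether these ratios differ from those of miR-200a and miR-200b was not tested.

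Markers of other cells were counted in the same libraries. Of 11 miRNAs of stroma, smooth muscle and vessels 7 were listed, with 2.67% of the pregnant and 2.70% of the cyclic counts, a ratio of 0.988 (0.749 to 1.29). None of the 7 was called, where 13.6% (higher) and 7.41% (lower) of all 81 were. Those unlisted for the pregnant library lay under the 52 cyclic counts that a lower call needs and could not have been called. The sum leaves unlisted members without pregnant counts, and over those listed in both libraries the median log2 ratio was 0.38. miR-145 (1.35, 0.948 to 1.89), miR-221 (1.3, 0.598 to 2.67) and miR-99a (1.11, 0.498 to 2.30) were listed in both libraries. The other listed ones, among them miR-143, miR-199a and miR-214, had 10 to 20 cyclic counts and were unlisted for the pregnant library, where an equal share would have been under the minimum too. Of 5 leukocyte miRNAs 2 were listed, with 1.46% and 1.75% of the counts. miR-223, a miRNA of myeloid cells, was unlisted for the pregnant library and called lower (at most 0.453, 0.197 to 0.923), whereas miR-342 had a ratio of 1.39 (0.934 to 2.05). Of 3 erythroid miRNAs only miR-451 was, with 0.427% and 0.896%. miR-451, a red blood cell miRNA, had a ratio of 0.477 (0.235 to 0.885) and was called lower in the pregnant library. The other miRNAs called lower were miR-223, miR-200a, miR-200b, miR-21 (0.803, 0.656 to 0.977) and miR-1246 (0.705, 0.532 to 0.923). The part of blood cell miRNAs in the values of the family was not tested. Whether a member was lower because fewer vesicles of a cell type were present, or because each held less of it, cannot be told apart.

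The miRNAs whose ratio lay nearest to that of the whole family were let-7f, miR-16b and miR-29b, out of 27 others with at least 100 counts in the libraries together. let-7f had a ratio of 0.835 (0.585 to 1.17), miR-16b of 0.854 (0.621 to 1.16) and miR-29b of 0.810 (0.497 to 1.28). Their log2 ratios differed from that of the family by 0.0097, 0.022 and 0.053. The choice used the family's ratio over listed counts (0.840), which sums members that went in both directions. At the family's ratio with unlisted members at 9 copies (0.890), let-7g (0.888) and miR-30a (0.893) lay nearer. With 1 library per status a likeness in ratio rests on a single pair of values for each miRNA.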

How the data were processed

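Small RNA of ULF vesicles was sequenced on an Ion Torrent PGM in 1 library per status, each pooled from 4 ewes. The authors ran CLC Genomics Workbench (version not given in the sources used here), kept reads of 15 to 55 bp, matched them to cattle mature miRNAs of miRBase release 19 and grouped them with a minimum of 10 copies. The deposited values are unnormalized read counts per mature miRNA, beside separate counts of exact matches and of 1-precursor reads. Columns of fold changes made by the authors, and 6 columns of a library not mapped here, were not used.

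Each count was divided by the total of mature miRNA counts (2809 and 7921). Intervals (95%) were exact conditional for ratios and odds ratios and Clopper-Pearson for shares. Those of ratios and odds ratios were run on simulated independent Poisson counts, the model that they assume. The simulation held no duplicate reads, pooling of ewes or minimum of copies, so it does not test the intervals under these. An unlisted miRNA was set at 9 copies, and a share of 0 was given the limit of 3 counts. No test between conditions was possible. Python 3.11.15, SciPy 1.17.1, pandas 2.3.3, NumPy 2.4.6 and matplotlib 3.10.9 were used. Alternatives were scaling by all reads, by annotated reads, by edgeR's TMM (4.0.16) or DESeq2's size factors (1.42.0) in R 4.3.3 and without the family, exact or 1-precursor reads only, minimums of 20 and 50 copies and the second deposited table. Sums with unlisted members at 9 copies, or over members in both libraries, were added after the data were examined. All members were named, together with the listed epithelial miRNAs and the 3 miRNAs nearest to the family in ratio. The members and lists were chosen with earlier results of these data known.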

Additional observations from a re-analysis of the deposited data

How the results depend on the processing

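Of 125 recomputed values, 103 kept their side of the threshold and, where they were not bounds, their direction. The bounds of miR-141 and miR-429 rose to at most 1.31 and at most 2.83 with a minimum of 20 copies, which sets them at 19. The second deposited table gave the same counts for all 81 miRNAs, so its values among the 103 could not have changed. The same holds for several odds ratios, as given below. Scaling moved every log2 ratio by -1.83 with all reads, -0.05 with annotated reads, -0.16 under TMM (edgeR), -0.22 under size factors (DESeq2) and -0.03 with totals without the family, and directions are relative to total mature miRNA counts. Relative to all reads miR-200c became 0.445, the miR-200c/miR-141 cluster 0.376 and the whole family 0.236. Lower calls were made there for miR-141 (at most 0.166), miR-429 (at most 0.356) and the AATACTG group (0.266). With DESeq2's size factors the miR-200c/miR-141 cluster (1.15) was no longer called and the AATACTG group (0.809) was called lower, as they were with TMM (1.20 and 0.849). A minimum of 50 copies drops miR-141 and miR-429 and gave 0.857 for miR-200a and 0.857 for the AACACTG group, both no longer called, 1.17 for the AATACTG group, called higher, and 1.08 for the whole family. Nor was the family called at 0.886 with a minimum of 20 copies, 0.890 with unlisted members at 9 copies and 0.895 over members in both libraries. Exact matches exist for miR-200c only, so that the AATACTG group and the whole family both became 1.46, called higher, and the family took 29.9% of the pregnant and 20.5% of the cyclic exact counts. Of reads of 1 precursor it took 14.6% and 17.5%. No odds ratio changed its call, but those between members could not change. Their counts all exceed 50 and are all reads of 1 precursor. Those of the clusters and seed groups could change only with a minimum of 50 copies and with the other ways of treating unlisted members. No exact-match value could be had for the other members or for odds ratios. With 1 library per status no replicate could be left out. No paired analysis was possible because each library is 1 pool of ewes of 1 status. The pregnant total of 2809 counts and the minimum of 10 copies limit what can be said of miR-141 and miR-429.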

Other observations

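Across the table the exact matches went with the last base of the cattle reference in both libraries. In the pregnant library 9 of the 10 listed miRNAs that end in A had an exact match, and 4 of the 44 that end in another base. By counts, 50.7% of the pregnant and 43.8% of the cyclic counts of miRNAs ending in A were exact, against 2.26% and 2.08% of the rest. Among the 23 miRNAs of the cyclic library with any exact match miR-200c had the 6th highest exact share. The relation was noticed in these data and is given as a description.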
